A study of Mus musculus with 21 samples.

Results

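CD4+ T cells taken 24 h after 80 µg of the [4Y] MBP peptide were compared with control CD4+ T cells across all genes. The comparison used 6 of the 21 libraries of the series, 3 from mice given 80 µg and 3 from untreated control mice, and each library came from 1 mouse. All mice were Tg4 Nr4a3-Tocky Il10-GFP (labelled Tg4 Tiger Nr4a3-Tocky). Their CD4+ T cells carry a transgenic receptor for a myelin basic protein peptide, a green reporter of Il10, and a Timer protein under Nr4a3 regulation that is blue when new and matures to red. The 80 µg mice received the peptide once under the skin without adjuvant, and their splenic CD4+ T cells were sorted at 24 h as Nr4a3-Blue-Nr4a3-Red+, that is, cells whose receptor had signalled earlier and no longer made new Timer. The gate used for the control cells is not given in the sources used here, so peptide, time and gate cannot be told apart in this comparison. Both sexes were used in the study, and ages are not given. Mice given 0.8 µg at 24 h (the same gate) and mice given 80 µg at 12 h (sorted as Blue+Red+) or 4 h (Blue+Red-), 3 per group, served as reference points.

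A naive T cell rests outside the cell cycle, kept there by transcription factors and inhibitors that limit growth, while interleukin 7 sustains its survival. Antigen first switches on immediate early genes through calcium, MAP kinase and NF-kB signalling, then a phase of ribosome building and metabolic rewiring, and later DNA replication and division. In the same window a CD4+ T cell acquires cytokine receptors, effector genes and inhibitory receptors that shape what its progeny become.

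The 80 µg 24 h libraries held 3688959 to 6244279 counts and the control libraries 2352800 to 3278354. Of these, Gm42418, an RNA gene that overlaps ribosomal RNA sequence, took 26.1 to 27.8% in the 80 µg libraries and 24.0 to 24.7% in the control libraries, and mitochondrial genes took 8.22 to 9.01% and 7.26 to 7.52%. A count of 3, used as the floor, equalled 0.480 to 0.813 CPM (counts scaled to the library total) in the 80 µg libraries and 0.915 to 1.28 in the controls. Of 11 CD4+ T cell markers (Cd4, the CD3 chains, Lck and others) none was called different by DESeq2 (by the adjusted p alone, 4 were higher and 1 lower), and their summed level was 16019 to 16910 normalised counts in the 80 µg libraries and 15088 to 15872 in the controls. A normalised count is a read count divided by the library's DESeq2 size factor. B cell markers, summed over 15 genes without Ighm, reached 1115, 485 and 473 normalised counts in the 3 controls and 271, 148 and 118 in the 80 µg libraries. Ighm went the other way. With Ighm, the sums of the 17 markers that passed the count filter overlapped, with 2226, 1622 and 1689 in the controls. In the 80 µg libraries they were 1831, 1600 and 1540. Markers of myeloid cells, red cells, platelets, plasma cells and CD8+ T cells gave 1 call between them (Adgre1, lower). Of 6 NK cell markers tested, 2 were higher (Gzma and Nkg7) and 0 lower, and the summed level of the 9 that passed the count filter was 101 to 133 normalised counts in the 80 µg libraries and 45.4 to 69.0 in the controls. Of 3 dendritic cell markers tested, 1 was higher (Bst2, which is also on the interferon-stimulated list). The Y-linked gene Ddx3y was present in 2 of 3 80 µg libraries and 1 of 3 controls, so the mix of sexes differed. Deposited log2 Xist values were 5.47, 11.8 and 11.8 in the controls and 3.99, 2.99 and 11.9 in the 80 µg libraries. Of 6 sex-linked genes passing the count filter, 4 were tested and 0 called (0 by the adjusted p alone). With both sexes in each group, their spread makes a call unlikely, so this does not show that the sexes were balanced.

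Of 15300 genes with at least 10 counts over all libraries, 12925 were tested and 2615 were called different between 80 µg at 24 h and control, which is 20.2% of the genes tested. A gene was called when the Benjamini-Hochberg adjusted p of the DESeq2 Wald test was under 0.05 and its shrunken log2 fold change exceeded 1 in size. Among these, 1593 genes (12.3%) were higher and 1022 (7.91%) were lower after 80 µg. With the adjusted p alone, 2862 genes were higher and 2186 lower, and the median log2 fold change over all genes tested was -0.0032. With TMM size factors 1630 genes were higher and 984 lower (62.4% of calls higher, against 60.9%). With size factors from library totals and Gm42418, mt-Rnr1 and mt-Rnr2 left out, changed together, 1275 genes were higher and 1441 lower (46.9% higher), and the median was -0.16. On the main scale 643 genes exceeded a log2 fold change of 2 and 99 exceeded 5, against 197 genes that fell by over 2 and 0 that fell by over 5. The 3 values of each group did not overlap for 50.8% of all genes tested.

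**Figure D1:**
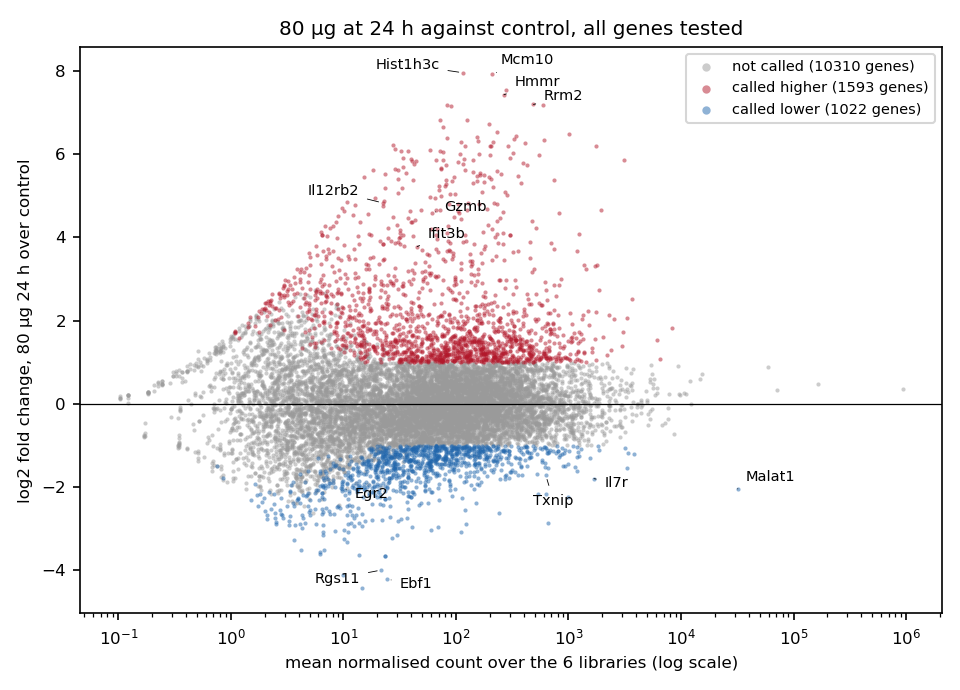
Each point is 1 of the 12925 genes tested, with its mean normalised count over the 6 libraries on the x axis (log scale) and its shrunken log2 fold change (80 µg at 24 h over control) on the y axis. Red points are the 1593 genes called higher, blue points the 1022 called lower and grey points those not called. Cell division genes such as Mcm10 and Hmmr lie at the top, with values above 7, while Rgs11 and Ebf1 lie near -4 on the lower side.

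The genes that rose most after 80 µg were genes of cell division. Where the 6-library mean reached 20 normalised counts and the highest control lay under the lowest 80 µg mouse, the 12 with the largest increase were Hist1h3c, Mcm10, Hist1h1b, Hmmr, Rrm2, Hist1h2ab, Cenpf, Hist1h2ag, Esco2, Shcbp1, Ckap2l and Neil3, with log2 fold changes from 6.64 to 7.95. Mcm10 (chr2:4989714-5012791, minus strand, GRCm38), a factor that helps to fire replication origins, had 445, 403 and 418 normalised counts in the 80 µg mice and 0, 0 and 1.43 in the controls. The controls held 1 Mcm10 read in all, and the pooled ratio was 1113 with a 95% exact counting interval from 200 to 44005. Hmmr (chr11:40701395-40733422, minus strand), a spindle-associated protein, had 579, 501 and 515 normalised counts against 1.03, 2.03 and 4.28 (log2 fold change 7.42, SE 0.51, adjusted p = 2.06e-33). These genes were near silent in every control mouse and present in every 80 µg mouse.

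Of 56 DNA replication genes tested, 52 were higher, 0 were lower and 4 were not called, and the list's median log2 fold change was 2.75. Uhrf1, which guides maintenance DNA methylation at the replication fork, had 890, 710 and 858 normalised counts against 14.4, 2.03 and 12.8 (log2 fold change 6.27). Cdc6, an origin licensing factor, had 424, 369 and 385 against 5.15, 7.10 and 2.86, and Cdc45, a part of the replicative helicase, had 193, 199 and 229 against 3.09, 1.01 and 4.28. Clspn, the adaptor that carries the checkpoint signal from stalled forks, differed by 5.78 on the log2 scale. The 4 genes not called were Orc3, Orc4, Orc5 and Pole4, named as the exceptions, of which Orc4 had a log2 fold change of -0.58.

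Of 31 genes of nucleotide supply, 22 were higher and 1 was lower (median 1.51). Rrm2 (chr12:24708241-24714146), the regulated subunit of ribonucleotide reductase, had 966, 837 and 1112 normalised counts against 9.28, 3.04 and 4.28 (log2 fold change 7.19, SE 0.38, adjusted p = 7.41e-67). Tk1, the thymidine kinase of S phase, rose by 6.52 on the log2 scale, Rrm1 by 4.22 and the thymidylate synthase gene Tyms by 3.84. The gene that fell was Impdh1, named after its value was seen, at -1.27, while its paralogue Impdh2 was at 1.65.

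Regulators of the cycle came next. Of 29 E2F factors, cyclins, cyclin-dependent kinases and their inhibitors, 18 were higher and 1 was lower (median 1.69). Ccne2, the cyclin of S phase entry, had 322, 355 and 260 normalised counts against 1.03, 2.03 and 5.71. The repressor E2Fs E2f8 and E2f7 rose by 5.85 and 5.65 on the log2 scale, Foxm1, the activator of mitotic genes, by 5.44, and Ccna2 by 5.39. Cdkn2c, an inhibitor of CDK4 and CDK6, rose as well, from 5.15, 6.08 and 5.71 to 85.5, 132 and 127. Ccnd2, the D cyclin induced by receptor signalling, was the gene that fell, with 2146, 1953 and 2037 normalised counts after 80 µg and 4640, 4738 and 4645 in the controls (log2 fold change -1.19, SE 0.11, adjusted p = 4.77e-26).

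Of 71 mitosis genes tested, 69 were called higher and 0 lower, and the median log2 fold change was 4.99. Cenpf (chr1:189640606-189688086, minus strand), a kinetochore protein, had 1096, 1242 and 1172 normalised counts against 8.25, 1.01 and 11.4 (log2 fold change 7.18, SE 0.43, adjusted p = 4.64e-54). Esco2, which acetylates cohesin, Tpx2, a spindle assembly factor, and Ckap2l, a spindle protein, rose by 6.82, 6.43 and 6.72 on the log2 scale. Ccnb1, the cyclin that drives entry to mitosis, had 152, 160 and 179 normalised counts against 0, 2.03 and 1.43, and its pooled ratio was 147 (95% exact counting interval 50.2 to 716). The 2 genes not called were Bub3 and Smc4, at 0.42 and 0.59. The list's summed level was 54083 to 58669 normalised counts after 80 µg and 7893 to 8434 in the controls.

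DNA repair and checkpoint genes were higher in 29 of 35 cases and lower in 0 (median 2.96). Neil3, a glycosylase for damaged bases, Rad51ap1, a recombination cofactor, and Rad54b, a recombination motor, led the list. Rad51ap1 had 304, 322 and 292 normalised counts against 2.06, 3.04 and 2.86 (log2 fold change 6.4). The damage-sensing kinase genes Atm and Atr, named after their values were seen, were not called, at 0.38 and -0.87.

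Histone genes of the replication-dependent clusters were higher in 34 of 51 tested and lower in 1, with a median of 3.07 (2.61 where genes with no control reads are set to their lower bound). Hist1h3c (chr13:23744973-23745602, minus strand) had 278, 269 and 144 normalised counts after 80 µg and 0 in all 3 controls, which is at least 66.4-fold higher against a floor of 3 counts per library. Hist1h1b, a linker histone, had 426, 638 and 591 against 2.06, 2.03 and 2.86 (log2 fold change 7.53). Hist1h2ab had 163, 178 and 159 against 1.03, 0 and 0, Hist1h2ag 249, 174 and 113 against 0, 1.01 and 0, and Hist1h2bk 65.7, 86.8 and 48.7 against 0, 1.01 and 0. Most of these messages lack a poly(A) tail in cells, so that a library primed on poly(A) sees part of them, and many of the genes are near copies between which reads could be split. Hist3h2a, named after its value was seen, was the gene that fell (71.1, 104 and 74.2 to 6.57, 13.98 and 22.8, log2 fold change -2.38). Its exons overlap those of Trim17 on the same strand.

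The promoters of these lists are shown because their members moved together. In the RefSeq promoter table (GRCm38.p6, 250 bases before and 50 after each start, both strands searched), 4 motifs were looked for by their letters: E2F as TTTCCCGC or TTTGGCGC, the cell cycle homology region (CHR) as TTTGAA, the CCAAT box as CCAAT, and an ISRE-like element, the site of interferon-activated STAT and IRF complexes, as GAAA followed by any 2 bases and GAAA again. Of 12925 genes tested, 9084 matched 11500 promoters. The E2F letters stood in 28.3% of 60 replication promoters and in 1.56% of all 32851 promoters in the table. They stood in 7.46% of the mitosis promoters and in 3.10% of the promoters of genes tested. The CHR letters stood in 65.7% of 67 mitosis promoters against 17.9% of all, and CCAAT in 73.1% of the mitosis and 82.1% of 39 histone promoters against 37.4% of all. CHR also stood in 43.6% of the histone promoters. Over promoters of genes tested the shares were 12.4% for CHR and 38.1% for CCAAT. Over all genes called higher, the shares were 6.88% for E2F, 18.9% for CHR and 46.4% for CCAAT, and over genes tested and not called 2.63%, 11.5% and 36.9%. A match is a string of letters and was not tested as a binding site. For each list, among called members averaging 20 or more normalised counts, the one with the largest increase is printed whose promoter held the letters and had at most 30 bases in annotated exons. Each sequence runs from 250 bases before to 30 bases after the RefSeq start, with the letters named in capitals (E2F for Mcm5, CHR for Cenpf, CCAAT for Hist1h1b, ISRE-like for Ifit3b).
Mcm5, chr8:75109259-75109538, plus strand: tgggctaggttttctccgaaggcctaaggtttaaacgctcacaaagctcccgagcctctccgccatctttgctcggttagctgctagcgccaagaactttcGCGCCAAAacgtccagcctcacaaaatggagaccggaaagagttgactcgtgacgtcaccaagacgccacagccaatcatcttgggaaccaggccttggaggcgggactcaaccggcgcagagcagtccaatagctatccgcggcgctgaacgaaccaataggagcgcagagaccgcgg
Cenpf, chr1:189688057-189688336, minus strand: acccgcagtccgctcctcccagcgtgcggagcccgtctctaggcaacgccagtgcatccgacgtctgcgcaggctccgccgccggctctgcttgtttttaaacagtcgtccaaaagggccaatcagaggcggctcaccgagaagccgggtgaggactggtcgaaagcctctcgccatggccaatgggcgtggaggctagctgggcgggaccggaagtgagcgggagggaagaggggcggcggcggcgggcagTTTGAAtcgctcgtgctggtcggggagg
Hist1h1b, chr13:21780596-21780875, minus strand: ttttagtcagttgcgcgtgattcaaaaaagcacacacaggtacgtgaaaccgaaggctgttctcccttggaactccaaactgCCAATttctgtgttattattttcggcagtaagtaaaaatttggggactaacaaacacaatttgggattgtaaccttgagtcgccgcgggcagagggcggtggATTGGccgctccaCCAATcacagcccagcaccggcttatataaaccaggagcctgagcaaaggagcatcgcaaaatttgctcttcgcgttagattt
Ifit3b, chr19:34607707-34607986, plus strand: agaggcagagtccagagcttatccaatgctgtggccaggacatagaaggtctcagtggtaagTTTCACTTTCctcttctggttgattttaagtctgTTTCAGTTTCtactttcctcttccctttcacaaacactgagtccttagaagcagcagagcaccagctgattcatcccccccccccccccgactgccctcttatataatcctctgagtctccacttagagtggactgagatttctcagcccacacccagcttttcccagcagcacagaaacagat
Mcm5, a subunit of the replicative helicase, had 796, 885 and 887 normalised counts after 80 µg and 70.1, 45.6 and 52.8 in the controls. Its E2F letters begin 149 bases before the start and read on the other strand. In Cenpf the CHR letters begin 2 bases after the start, and in Hist1h1b the CCAAT letters begin 168, 66 and 53 bases before it, the 66-base match on the other strand.

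**Figure D2:**
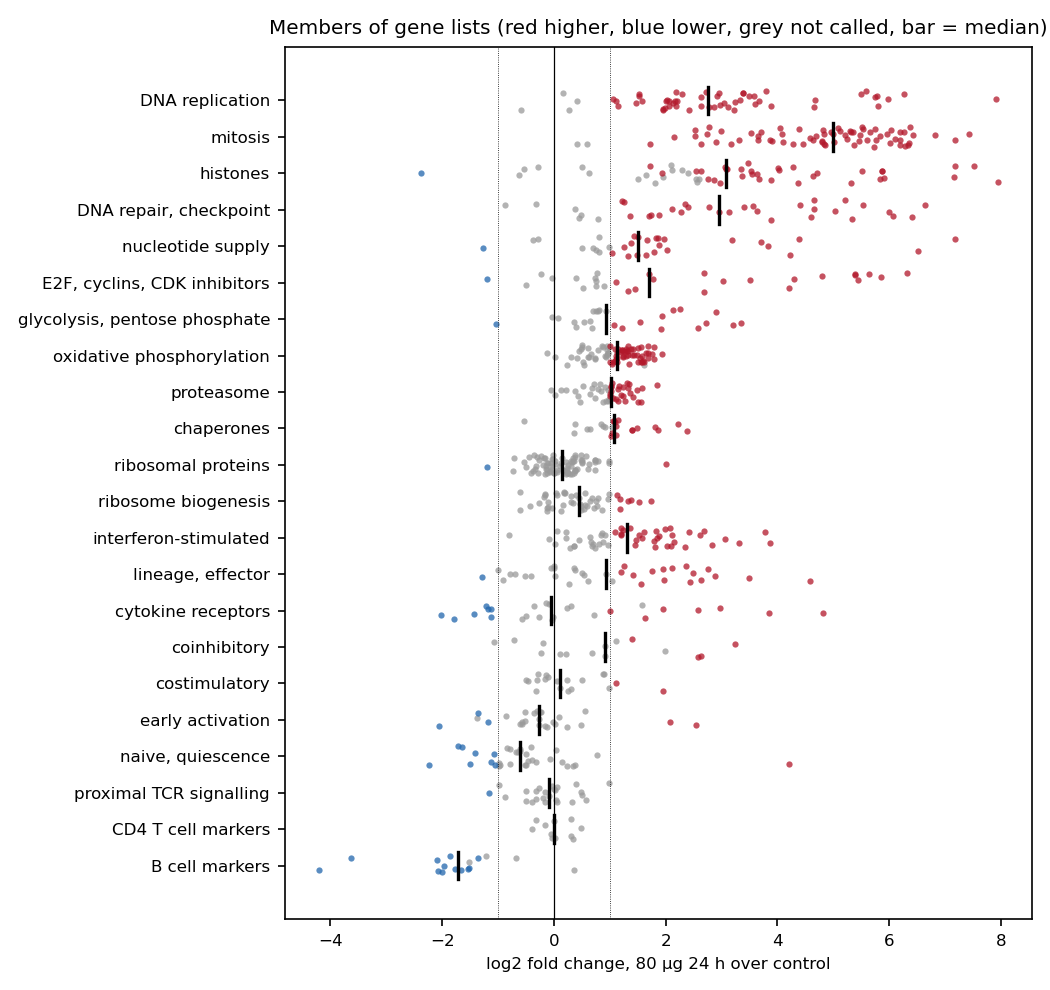
Each point is 1 tested gene of a list, placed by its shrunken log2 fold change (80 µg at 24 h over control), with red for called higher, blue for called lower and grey for not called, and the black bar is the list's median. Dotted lines mark -1 and 1. Mitosis genes centre at 4.99, ribosomal protein genes at 0.14, CD4+ T cell markers at 0 and naive and quiescence genes at -0.61.

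Metabolic and protein quality lists were higher by smaller amounts. Of 77 nuclear genes for oxidative phosphorylation, 48 were higher and 0 lower (median 1.13), led by Atp5k, a subunit of ATP synthase, with 1178, 1063 and 886 normalised counts against 311, 289 and 210 (log2 fold change 1.93). Cox5b, a subunit of cytochrome oxidase, rose by 1.80 on the log2 scale, and Sdhd, a membrane anchor of complex II, by 1.79. Of 8 mitochondrially encoded messenger RNAs, 1 was called higher (mt-Nd6, 1.58), and this 12.5% lay near the 12.3% of all genes tested. By the adjusted p alone 7 of the 8 were higher, against 2862 of all 12925 genes tested, and the median was 0.50.

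Glycolysis and pentose phosphate genes were higher in 12 of 25 cases and lower in 1 (median 0.93). Tpi1 had 265, 241 and 255 normalised counts against 28.9, 24.3 and 17.1, and Hk2, the inducible hexokinase, had 103, 35.3 and 71.5 against 12.4, 2.03 and 2.86. Gapdh rose by 2.73 on the log2 scale. Eno1 was at -1.04 with 92.05, 78.7 and 72.1 against 161, 159 and 180, a value that stays uncertain, as does that of Gapdh, since both genes have near copies elsewhere in the genome with which reads could be shared. Without 80 µg replicate 3 or control replicate 3, Eno1 was not called (-0.98 to -0.96).

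Proteasome subunits were higher in 25 of 46 cases (median 1.01) and cytosolic and mitochondrial chaperones in 15 of 24 (median 1.07), with 0 lower in both lists. The proteasome subunit Psmb2 had 226, 219 and 244 normalised counts against 54.6, 50.7 and 84.2. Hspd1, the mitochondrial chaperonin, had 1142, 774 and 1015 against 179, 241 and 127, and Hsp90aa1, an inducible HSP90, had 2933, 1994 and 2466 against 490, 641 and 414. ER folding genes were higher in 11 of 24 and lower in 1. Sdf2l1, an ER chaperone cofactor, rose by 3.67 and the disulphide isomerase Pdia6 by 1.5 on the log2 scale. The stress sensor Ern1, named after its value was seen, fell by 1.63, while the sensor Atf6 rose by 1.29. The Ern1 call was lost without 80 µg replicate 3 or either of control replicates 2 and 3 (-1.44 to -1.14).

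Of 82 cytosolic ribosomal protein genes, 1 was higher, 1 was lower and 80 were not called (median 0.14). The pair that was called are paralogues: Rps27l had 542, 553 and 631 normalised counts against 139, 147 and 141 (log2 fold change 2.00), while Rps27 had 2383, 2323 and 2271 against 5244, 5275 and 5513 (log2 fold change -1.20). Of 47 ribosome biogenesis genes 7 were higher, with a median of 0.45, and this share of 14.9% lay near the 12.3% of all genes tested. By the adjusted p alone 25 of the 47 were higher and 2 lower, against 2862 and 2186 of all 12925 genes tested. The list's summed level was 24082 to 27312 normalised counts after 80 µg and 12590 to 13530 in the controls. The nucleolar proteins Npm1, with 5351, 4594 and 4133 against 1413, 1455 and 1356, and Ncl, with 9631, 8618 and 9216 against 3103, 3396 and 2999, led that list. Ncl overlaps snoRNA and microRNA genes on its own strand.

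Effector and lineage genes came next. Of 35 tested, 16 were higher, 1 was lower and 18 were not called (median 0.93). The called shares were 45.7% higher and 2.86% lower, against 12.3% and 7.91% of all genes tested. Gzmb (chr14:56258838-56262260, minus strand), the cytotoxic protease granzyme B, had 71.2, 94.9 and 186 normalised counts after 80 µg and 3.09, 0 and 8.57 in the controls (log2 fold change 4.59, SE 0.54, adjusted p = 3.51e-14). Tbx21, the Th1 regulator T-bet, had 92.05, 44.9 and 78.3 against 9.28, 11.2 and 4.28 (log2 fold change 2.88). Both genes separated the groups, with a wide spread among the 80 µg mice. The NK cell markers Gzma and Nkg7 were higher by 1.95 and 1.24, but Gzma was not called without 80 µg replicate 3 (1.41) and Nkg7 not without 80 µg replicate 2 or 3 or control replicate 1 or 3 (0.80 to 1.23). The NK receptors Klrb1c and Klrk1 had 0 to 8.11 normalised counts in the 6 libraries, and Prf1 was at -0.70. The part of NK cell RNA in the effector genes was not tested.

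The cytokine messages of the list were low. Ifng had 12.1, 10.3 and 4.93 normalised counts after 80 µg and 0 in all controls, which is at least 2.62-fold higher against the floor, and the predicted gene Gm49751 overlaps it on the same strand. With limma voom Ifng was not called (adjusted p = 0.126). Il21, the follicular helper cytokine, had 17.5, 15.5 and 30.8 against 1.03, 2.03 and 0, with a pooled ratio of 19.8 (95% exact counting interval 6.55 to 97.8). Il2 and Il10 were not called, with 20 and 12 reads over the 3 80 µg libraries and 15 and 10 over the controls, and Il17a had 0 reads in all 6.

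Among transcription factors, Irf8 had 401, 339 and 372 normalised counts against 99.0, 53.7 and 42.8 (log2 fold change 2.44), and Maf, which drives Il10 and Il21 in helper cells, had 998, 860 and 1017 against 243, 134 and 153 (2.37). The AP-1 family member Batf rose by 1.97 on the log2 scale, the circadian repressor Bhlhe40 by 2.49, the follicular homing receptor Cxcr5 by 2.12 and Ikzf2, which encodes Helios, by 1.55. Foxp3 had 103, 79.5 and 96.1 against 56.7, 14.2 and 45.7 (log2 fold change 1.20, adjusted p = 0.0293 by DESeq2), and it was not called without 80 µg replicate 1 or 3 or control replicate 2 (0.84 to 1.12). With library-total size factors, and Gm42418, mt-Rnr1 and mt-Rnr2 left out, Foxp3 was also not called (1.04). Tox, a factor of chronic stimulation, was the member that fell, from 392, 334 and 353 to 129, 162 and 149 (-1.28). Gata3 at 0.38, Stat4 at 0.54, Bcl6 at -0.04, Rora at -0.52 and Eomes at 0.36 were not called.

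**Figure D3:**
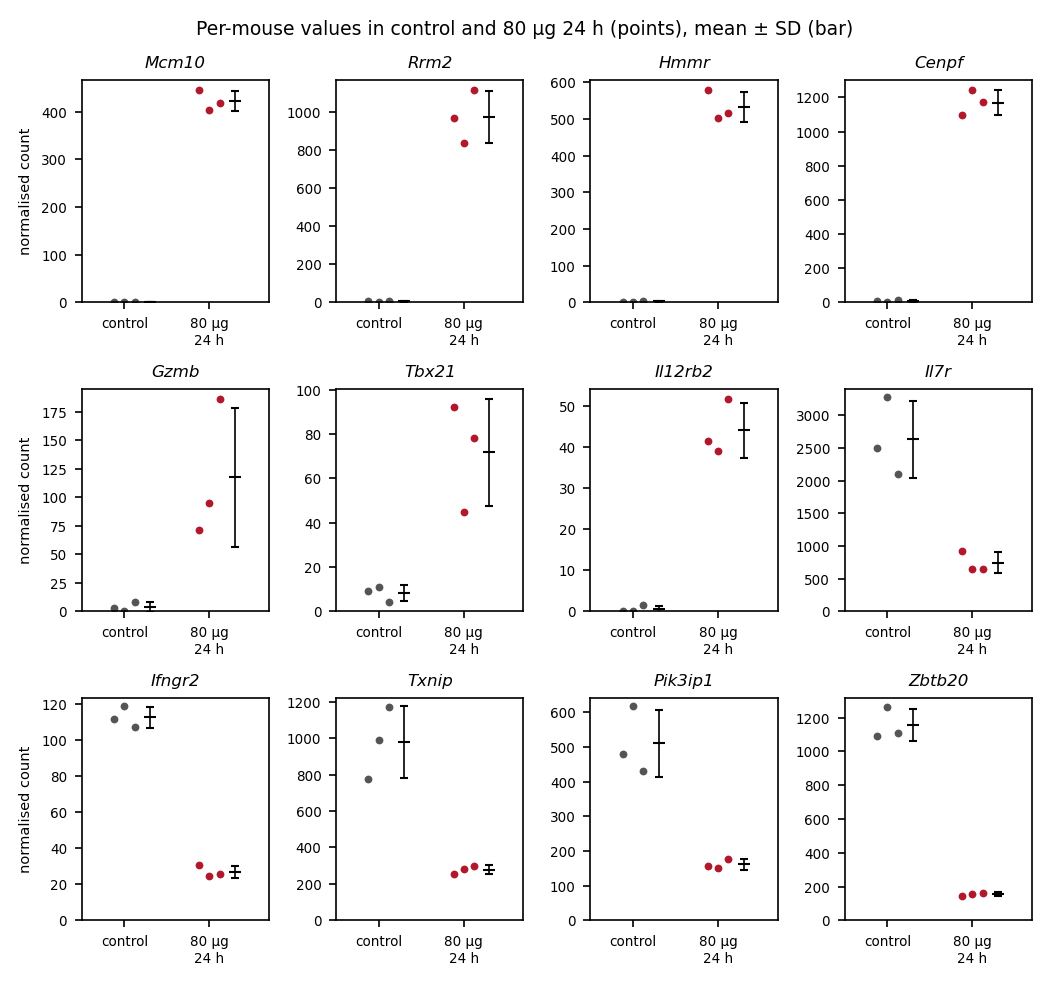
Each panel shows 1 gene, with the normalised count on the y axis (linear, from 0) and control and 80 µg 24 h mice on the x axis. Points are mice and the bar is the mean ± SD of 3. The controls lie near 0 for Mcm10, Rrm2, Hmmr and Cenpf, while Il7r, Ifngr2, Txnip, Pik3ip1 and Zbtb20 are lower in all 80 µg mice than in any control.

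Of 26 cytokine receptor genes, 7 were higher and 7 were lower (median -0.06). Each was 26.9% of the list, against 12.3% higher and 7.91% lower of all genes tested. Il12rb2, the inducible chain of the interleukin 12 receptor, had 41.6, 39.0 and 51.8 normalised counts against 0, 0 and 1.43 (pooled ratio 119, 95% exact counting interval 21.2 to 4742). Its partner Il12rb1 rose by 3.84 on the log2 scale. Of the interleukin 2 receptor, Il2rb had 520, 601 and 656 against 85.6, 45.6 and 95.6 (log2 fold change 2.96), Il2ra had 324, 305 and 312 against 76.3, 25.4 and 49.96 (2.57), and the shared chain Il2rg was at -0.02.

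Il7r (chr15:9505788-9530176, minus strand), the receptor for the survival cytokine interleukin 7, had 924, 645 and 654 normalised counts against 2505, 3272 and 2104 (log2 fold change -1.80, SE 0.26, adjusted p = 1.14e-10). Ifngr2, the signalling chain of the interferon gamma receptor, had 30.7, 24.3 and 25.9 against 111, 119 and 107 (-2.02), while Ifngr1 was at 0.23. Of the TGF-beta receptor genes, which carry a growth-limiting signal, Tgfbr1 was at -1.18, Tgfbr2 at -1.22 and Tgfbr3 at -1.43, each called lower. Il27ra and Il6ra fell by 1.13 and 1.12. Il18rap, Il1r1 and Il10ra completed the higher side at 1.95, 1.62 and 1.01, whereas Il4ra at -0.57, Il21r at -0.03 and Il6st at -0.08 were not called. Tgfbr1 lost its call without control replicate 1 (-0.97), Il1r1 without 80 µg replicate 3 or control replicate 2 (1.14 to 1.19), and Il10ra without any 1 of the 3 80 µg libraries or control replicates 1 or 3 (0.83 to 1.00). In a fit to the 6 samples compared, Il1r1 (1.37) and Il10ra (0.97) were not called. Il10ra was also not called with the deposited log2 values (0.89) or counts thinned to the smallest library (0.999). With library-total size factors, and Gm42418, mt-Rnr1 and mt-Rnr2 left out, Il10ra was at 0.85 and not called.

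Of 15 coinhibitory receptors 4 were higher (26.7%, against 12.3% of all genes tested) and 0 lower (median 0.91, or 0.67 with bounds). Ctla4 had 211, 172 and 230 normalised counts against 18.6, 7.10 and 31.4 (log2 fold change 3.24), and Pdcd1, which encodes PD1, had 30.7, 32.4 and 46.8 against 6.18, 3.04 and 7.14 (2.57). Cd200 rose by 1.40. Lag3 had 3.29, 8.10 and 2.47 against 0 in all controls, at least 1.33-fold higher against the floor, a call that was lost without 80 µg replicate 2. Lag3 was also not called with the deposited log2 values (0.69) or with counts thinned to the smallest library (2.01). Tigit had 4 reads in all, all of them in 80 µg libraries, and Havcr2 10 reads against 3, and neither was called.

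Of 19 costimulatory receptors and ligands 2 were higher and 0 lower (median 0.10), and the 10.5% higher lay near the 12.3% of all genes tested. By the adjusted p alone 8 were higher and 2 lower. Icos had 1109, 862 and 1114 normalised counts against 301, 267 and 220 (log2 fold change 1.95, adjusted p = 2.92e-24) and Tnfrsf9, which encodes 4-1BB, rose by 1.11, with no call left without 80 µg replicate 3 or control replicate 2 (0.69 to 0.85). Tnfrsf9 was also not called with limma voom (1.38) or the deposited log2 values (0.91). The same held with library-total size factors, and Gm42418, mt-Rnr1 and mt-Rnr2 left out (0.95). Tnfrsf4 and Tnfrsf18, which encode OX40 and GITR, had DESeq2 adjusted p of 0.000817 and 2.26e-06 with log2 fold changes of 0.99 and 0.90, under the fold change threshold, and so were not called. Tnfrsf4 was called higher with unshrunken fold changes (1.02), edgeR (1.04) and TMM size factors (1.005). It was also called without 80 µg replicate 2 or control replicate 1 or 3 (1.03 to 1.12). Cd28 was at 0.23, Cd27 at -0.33 and Cd40lg at -0.49.

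Of 26 early activation genes, 2 were higher (7.69%, against 12.3% of all genes tested) and 3 were lower (11.5%, against 7.91%), with a median of -0.27, and their summed level was 3655 to 4141 normalised counts after 80 µg and 5099 to 5668 in the controls. Egr2 (chr10:67535475-67542188), a zinc finger factor induced by receptor signalling, had 1.10, 5.15 and 3.08 normalised counts against 19.6, 12.2 and 17.1 (log2 fold change -2.05, SE 0.48, adjusted p = 0.000148). Egr1 had 64.7, 71.4 and 94.3 against 204, 170 and 158. Nr4a3 (chr4:48045153-48086447), the gene whose regulation drives the Timer, had 4.38, 8.10 and 14.8 against 37.1, 28.4 and 12.8 (-1.36, adjusted p = 0.00668), so that the highest 80 µg mouse lay above the lowest control. The Nr4a3 call was lost without control replicate 1 (-1.13) and with limma voom (-1.47). Irf4 rose, with 65.7, 82.4 and 88.7 against 11.3, 12.2 and 14.3 (2.54), as did Fosb at 2.09. Nr4a1 at 0.02, Nr4a2 at 0.23, Cd69 at -0.35, Myc at -0.56, Ier2 at -0.86 and Junb at -0.27 were not called. Ier2 was called lower without control replicate 1 (-1.02) and with library-total size factors, and Gm42418, mt-Rnr1 and mt-Rnr2 left out (-1.03).

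Of 25 genes of proximal receptor signalling, 0 were higher and 1 was lower (4.00%, against 7.91% of all genes tested). By the adjusted p alone 5 were higher and 7 lower. The 1 called was the adaptor Pag1, which holds the inhibitory kinase Csk at the membrane (265, 235 and 205 normalised counts against 560, 486 and 537, log2 fold change -1.16). Rasgrp1, which activates Ras downstream of the receptor, had 489, 550 and 493 against 1044, 981 and 1001, and its log2 fold change of -0.98 lay just under the threshold in size (DESeq2 adjusted p = 3.11e-13). Rasgrp1 was called lower with counts thinned to the smallest library (-1.02) and without 80 µg replicate 2 (-1.04). The same held with library-total size factors, and Gm42418, mt-Rnr1 and mt-Rnr2 left out (-1.15). Cd3e was at -0.04, Cd3g at -0.38, Lck at -0.15, Zap70 at 0.32 and Lat at -0.31.

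Genes of naive identity and quiescence were lower in 8 of 33 cases and higher in 1, Cdkn2c (median -0.61, and 20 of 33 had an adjusted p under 0.05 in the lower direction). The called shares were 24.2% lower and 3.03% higher, against 7.91% and 12.3% of all genes tested. Igfbp4 (chr11:99041244-99054392), a growth factor binding protein of naive T cells, had 338, 404 and 280 normalised counts against 1909, 1487 and 1512 (log2 fold change -2.24, SE 0.22, adjusted p = 5.26e-23). Txnip, which limits glucose uptake, had 253, 282 and 299 against 778, 989 and 1172 (-1.72), and Pik3ip1, an inhibitor of PI3 kinase, had 156, 150 and 178 against 480, 619 and 431 (-1.64). Rapgef4 fell by 1.5. The summed level of the list was 22876 to 24231 normalised counts after 80 µg and 34972 to 36378 in the controls.

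S1pr1, the receptor for exit from lymphoid organs, had 461, 444 and 454 normalised counts against 1322, 1129 and 1532 (log2 fold change -1.49), whereas Cxcr3, a homing receptor of Th1 cells, had 147, 177 and 174 against 29.9, 10.1 and 44.3 (2.53), and of 23 homing and adhesion genes 2 were higher and 1 lower (8.70% and 4.35%, against 12.3% and 7.91% of all genes tested). Of 28 apoptosis and survival genes, 7 were higher and 1 was lower (25% and 3.57%, against 12.3% and 7.91% of all genes tested). The survival gene Bcl2 was the one that fell, from 1273, 1621 and 1258 to 431, 573 and 456 (-1.49), while Bak1, which opens the mitochondrial membrane in cell death, rose by 1.55. Of 20 anergy and tolerance genes, 4 were higher, including Nrp1 (2.00) and Rgs1 (1.87), and 2 were lower. These are 20% and 10% of the list, against 12.3% and 7.91% of all genes tested, so the lower share lay near that of all genes. Of 8 Gimap GTPases, 1 was lower (Gimap8, -1.18), which is 12.5% against 7.91% of all genes tested. Of 26 sterol synthesis genes 4 were higher (15.4%, near the 12.3% of all genes tested), with Pmvk at 2.15, and the cholesterol exporter Abca1 was the 1 lower (-1.82), a call lost without any 1 of 5 of the 6 libraries (-1.79 to -1.52). By the adjusted p alone 8 sterol synthesis genes were higher and 2 lower. Of 18 genes of interleukin 2 and MAP kinase feedback, 2 were higher (11.1%, near the share of all genes), Dusp4 and Socs2, and Dusp4 was not called without 80 µg replicate 3 (1.74). By the adjusted p alone 6 of these feedback genes were higher and 2 lower.

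Markers of regulatory and of memory CD4+ T cells were called higher in 6 of 10 and 5 of 11 cases, with 0 lower in both lists. The higher shares were 60% and 45.5%, against 12.3% of all genes tested. Those called were Ctla4, Il2ra, Nrp1, Lrrc32, Ikzf2 and Foxp3 for the first and included Il2rb, Cxcr3, Ly6c2 and S100a6 for the second, several of which other T cells also express on activation. The memory marker Cd44 was at 0.05. In bulk libraries such as these, a different share of cells of a type and a different amount of RNA per cell cannot be told apart.

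Interferon-stimulated genes were higher in 31 of 52 cases and lower in 0 (median 1.30), with 40 of 52 above control at an adjusted p under 0.05. Mx1, a GTPase that restrains viruses, had 153, 210 and 150 normalised counts against 7.22, 10.1 and 0 (log2 fold change 3.87, SE 0.84, adjusted p = 8.48e-05). Ifit3b (chr19:34607970-34613401), an RNA-binding antiviral gene, had 76.7, 72.9 and 107 against 3.09, 10.1 and 1.43 (3.78), and its near copy Ifit3 had 239, 295 and 353 against 42.3, 88.2 and 48.5 (2.14), with reads that could be split between the pair. Ly6a, which encodes Sca-1, had 3150, 2680 and 3573 against 299.9, 315 and 257 (3.32). Ifi44 and Gbp3 rose by 3.06 and 2.83. The ISRE-like letters stood in 54.5% of 44 promoters of the list and in 3.44% of all promoters in the table. In the Ifit3b promoter printed above they begin 188 and 154 bases before the start and read on the other strand. Of 20 genes of MHC class I presentation, the immunoproteasome genes Psmb9 (1.24) and Psmb10 with the activator Psme1 were higher (15.0%) and H2-Q7 was lower (5.00%, at -1.04), shares near the 12.3% and 7.91% of all genes tested. By the adjusted p alone 9 were higher and 1 lower. H2-Q7 belongs to a family of close copies, so its value is uncertain, and its call was lost without 80 µg replicate 2 or control replicate 2 or 3 (-0.98 to -0.95).

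The 12 genes that fell most, by the same rule as for the higher side, were Ebf1, Rgs11, Xkrx, Dapk1, Maml3, Gm37283, Ggt5, Gm42778, Slc16a5, Gm15675, Phf1 and Zbtb20, with log2 fold changes from -4.21 to -2.86. Zbtb20 (chr16:42875881-43642602), a zinc finger repressor, had 145, 157 and 165 normalised counts against 1090, 1263 and 1111 (-2.86, SE 0.21, adjusted p = 1.26e-41). Phf1, a partner of the Polycomb complex, had 25.2, 27.96 and 29.6 against 191, 199 and 258, and Ggt5, a gamma-glutamyl transferase family enzyme, had 24.1, 21.3 and 21.6 against 197, 190 and 206. Maml3, a Notch coactivator, had 1.10, 5.89 and 5.55 against 53.6, 44.6 and 49.96. Dapk1, a kinase linked to cell death, Rgs11, a regulator of G protein signalling, Xkrx, a membrane protein of the XK family, and Slc16a5, a member of the monocarboxylate transporter family, fell by 3.65, 3.99, 3.66 and 2.95. The rule that chose these genes requires that the highest 80 µg mouse lie below the lowest control mouse.

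Ebf1 (chr11:44617317-45008091) is a B cell transcription factor. Ebf1 had 3.29, 0.736 and 0.616 normalised counts after 80 µg and 83.5, 39.5 and 18.6 in the controls (-4.21, SE 0.69, adjusted p = 1.41e-07). Of 16 B cell markers tested, Ebf1 among them, 12 were called lower and 0 higher. Pax5 had 14.2, 7.36 and 3.08 against 56.7, 23.3 and 35.7, Ms4a1 23.01, 10.3 and 4.31 against 87.6, 50.7 and 35.7, and H2-Eb1 35.1, 13.2 and 12.9 against 162, 54.8 and 39.97. Ighm was not called, with 1560, 1452 and 1422 against 1111, 1137 and 1203. Its log2 fold change of 0.36 (DESeq2 adjusted p = 0.0158) lay on the higher side, under the fold change threshold. Control replicate 1 was the highest control for Ebf1, Pax5, Ms4a1 and H2-Eb1. In Pax5 control replicate 3 lay above replicate 2, unlike in Ebf1, Ms4a1 and H2-Eb1. Without control replicate 1, Ms4a1, H2-Eb1 and Cd74 were not called (Ms4a1 -1.70 to -1.58 over the libraries that ended its call, H2-Eb1 -1.16, Cd74 -1.10). The part of B cell RNA in these falls was not tested.

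Shares of called genes differed by gene type. Of 563 genes annotated as TEC, a class of unspliced transcripts awaiting review, 20.96% were lower and 1.6% higher, and of 100 sense intronic genes 14% were lower and 1% higher, against 7.08% and 13.7% of 10747 protein-coding genes. Of 242 lincRNAs, 13.2% were lower and 5.79% higher. Malat1 (chr19:5795690-5802672, minus strand), a nuclear RNA named after its value was seen, had 12611, 13305 and 11272 normalised counts against 46081, 52324 and 55382 (log2 fold change -2.04, SE 0.11, adjusted p = 8.03e-73). Of 86 snoRNA genes, 18.6% were higher and 1.16% lower. Among the 12 largest falls, Gm42778 and Gm37283 are annotated as TEC and Gm15675 as a lincRNA.

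Against the 80 µg cells of 12 h, sorted through a different gate, 3601 of 13221 genes tested were called (27.2%), 2213 higher and 1388 lower at 24 h. Time and gate cannot be told apart here. Interferon-stimulated genes were higher at 24 h than at 12 h in 48 cases and lower in 1, mitosis genes in 66 and 0, histones in 43 and 0, and naive and quiescence genes in 23 and 0. Ribosome biogenesis genes were lower in 47 of 47 and chaperones in 18 of 24. The median of the ribosome biogenesis list against control was 2.96 at 4 h, 2.46 at 12 h and 0.45 at 24 h, that of interferon-stimulated genes -1.28, -1.48 and 1.30, that of mitosis genes -1.5, 1.87 and 4.99, and that of naive and quiescence genes -3.80, -2.55 and -0.61. All these differences share the 3 controls.

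Genes called against control in opposite directions at 12 h and at 24 h were ranked by the difference between the times, and up to 8 each way are named. Above control at 12 h and below it at 24 h stood Egr2, Nr4a3, Fpgs, Polr3d, D030028A08Rik, Prpf40b, Mdn1 and Rsad1, with 24 h against 12 h log2 fold changes from -3.84 to -2.69. Egr2 had 200.2, 262 and 159 normalised counts at 4 h, 74.0, 56.5 and 45.7 at 12 h, and 1.10, 5.15 and 3.08 at 24 h. Polr3d, a subunit of RNA polymerase III, had 1013, 1056 and 1057 at 4 h, 452, 525 and 439 at 12 h, 63.6, 68.4 and 57.9 at 24 h, and 133, 118 and 160 in the controls. Each value at 24 h lay below every control. Mdn1, a large ATPase that matures ribosomal subunits, had 1813, 1859 and 1686 at 12 h, 299, 222 and 235 at 24 h and 741, 845 and 835 in the controls. Against control at 24 h, the calls of Polr3d and D030028A08Rik were lost without control replicate 3 (-0.98) and without 80 µg replicate 3 (-0.88).

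Below control at 12 h and above it at 24 h stood Lockd, Hist1h1d, Ifit1bl1, H2afv, Ifit3, 1700097N02Rik, Ifit3b and Cenpa, with log2 fold changes between the times from 6.76 to 5.45. Cenpa (chr5:30666777-30674830), the histone variant of centromeres, had 20.098, 5.14 and 11.7 normalised counts at 12 h, 535, 549 and 573 at 24 h, and 77.3, 105 and 78.5 in the controls. Ifit3 had 5.48, 2.20 and 1.94 at 12 h, 239, 295 and 353 at 24 h, and 42.3, 88.2 and 48.5 in the controls. Hist1h1d, a linker histone, had 0, 2.20 and 0.972 at 12 h and 152, 169 and 168 at 24 h. In these genes the 12 h mice were under the controls and the 24 h mice over them. 1700097N02Rik overlaps Glo1 on the same strand.

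**Figure D4:**
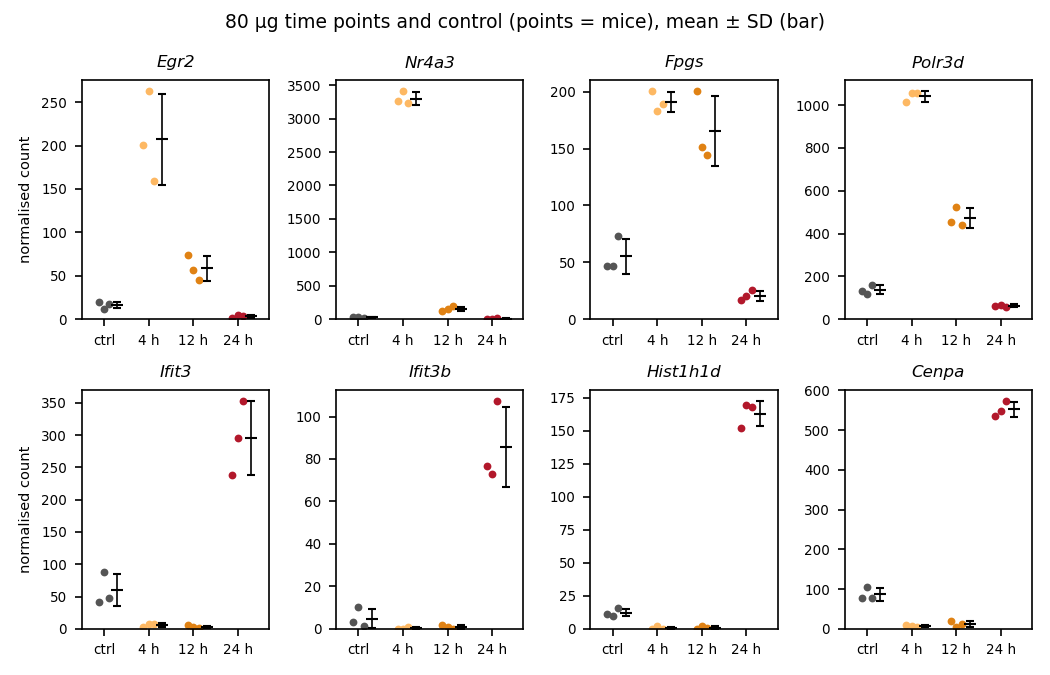
Each panel shows 1 gene, with the normalised count on the y axis (linear, from 0) and control and 80 µg mice at 4, 12 and 24 h on the x axis. Points are mice and bars are the mean ± SD of 3, and Egr2, Nr4a3, Fpgs and Polr3d have means below control at 24 h and above it at 12 h, with 1 Nr4a3 value at 24 h above the lowest control, while the means of Ifit3, Ifit3b, Hist1h1d and Cenpa show the reverse order.

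The dose was compared at 24 h between 80 µg and 0.8 µg, where the gate was the same. Of 9663 genes tested 151 were called (1.56%), 86 higher and 65 lower with 80 µg, which is 57.0% of calls higher. Limma voom called 138 higher and 144 lower, and a fit to the 6 samples compared called 50 and 28. With TMM size factors 86 were higher and 51 lower (62.8% higher), and with library-total size factors and Gm42418, mt-Rnr1 and mt-Rnr2 left out together 73 were higher and 89 lower (45.1% higher). Of 56 replication genes 0 were called in either direction, and of 69 mitosis genes tested 4 were higher with 80 µg. Medians against control at 0.8 µg and 80 µg were 2.46 and 2.75 for replication, 4.52 and 4.99 for mitosis, 1.13 and 1.30 for interferon-stimulated genes and -0.86 and -0.61 for naive and quiescence genes. Both doses were set against the same controls.

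Between the doses, a minority of effector genes and cytokine receptors was called. Of 28 lineage and effector genes tested, 5 were higher with 80 µg (Gzmb, Il21, Tbx21, Maf and Prdm1), 3 were lower (Eomes at -2.47, Tox at -1.40 and Ikzf2) and 20 were not called. Prdm1 lost its call without any 1 of the 80 µg libraries or 0.8 µg replicate 1 or 2 (1.10 to 1.38), and in a fit to the 6 samples compared (0.81). Of 24 cytokine receptors 5 were higher (Il12rb2, Il1r1, Il18rap, Il18r1 and Il10ra) and 1 was lower (Ifngr2). In the fit to the 6 samples Il18r1, Il10ra and Ifngr2 were not called (0.89, 0.81 and -0.85), and each also lost its call without any 1 of several libraries: Il18r1 without 5 of the 6 (0.98 to 1.22), Il10ra without 5 of the 6 (1.03 to 1.29) and Ifngr2 without 3 of the 6 (-1.14 to -0.93). Il10ra was also not called with edgeR (1.23) or with replicate number as a block (1.17). With counts thinned to the smallest library, Il10ra (1.08) and Ifngr2 (-1.16) were not called. Of 19 homing genes 5 were higher, and of 33 naive and quiescence genes 6 were higher, with 0 lower in the last 2 lists. Of 25 early activation genes 0 were higher and 4 lower, and of 19 costimulatory receptors and ligands 0 and 3. Over all 9663 genes tested between doses, 86 were higher and 65 lower. Gzmb had 71.2, 94.9 and 186 normalised counts with 80 µg and 9.73, 11.2 and 4.13 with 0.8 µg (log2 fold change 3.59). Il21 had 17.5, 15.5 and 30.8 against 0.973, 0 and 1.03 (log2 fold change 3.90, DESeq2 adjusted p = 0.000266), and Il12rb2 had 41.6, 39.0 and 51.8 against 7.79, 5.59 and 3.10 (2.79). Doses did not overlap in these 3 genes, but they are named from those called between doses, so this adds nothing to the calls. The matching share over all genes was not counted. Il1r1 had 7.67, 25.02 and 33.9 against 2.92, 0.932 and 0 (3.40), and Tbx21 and Maf differed by 1.95 and 1.53 on the log2 scale. Plac8, Ifi204, Il18rap, Neb and Neurl1b were higher by 2.64, 2.46, 2.28, 2.17 and 2.04, of which Plac8 lost its call without 80 µg replicate 3 (2.14) and in the fit to the 6 samples (0.59), and Ifi204 lost it without 0.8 µg replicate 1 or 3 (2.13 to 2.22). In that fit Gzmb, Il21, Il12rb2, Il1r1 and Tbx21 were called at smaller values, 2.21, 1.15, 1.49, 1.00 and 1.16.

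On the lower side stood Lad1, Nr4a3, 2310043P16Rik, Sox4, Gm42778 and Nrn1. Lad1 (chr1:135818598-135833342), a filament-associated protein, had 6.57, 14.7 and 4.93 normalised counts with 80 µg, 81.8, 102 and 163 with 0.8 µg and 2.06, 1.01 and 4.28 in the controls (80 µg against 0.8 µg -3.58, SE 0.30, DESeq2 adjusted p = 1.88e-28). Nr4a3 had 4.38, 8.10 and 14.8 with 80 µg and 37.0, 31.7 and 93.9 with 0.8 µg (-2.31). Sox4, a transcription factor of the SOX family, had 28.5, 51.5 and 54.8 against 144, 139 and 185 (-1.73). Ikzf2 was also lower with 80 µg, with 614, 524 and 614 against 1312, 1159 and 1890 (-1.30), and Egr2 was at -2.03 but not called with limma voom (-2.17) or in the fit to the 6 samples compared (-0.69). The calls of 2310043P16Rik and Gm42778 were lost without any 1 of several libraries (-2.15 to -1.94 and -1.67 to -1.30), and that of Gm42778 also in the fit to the 6 samples (-0.92). Ctla4 at 0.81, Foxp3 at -0.18 and Il2ra at 0.26 were not called between doses.

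**Figure D5:**
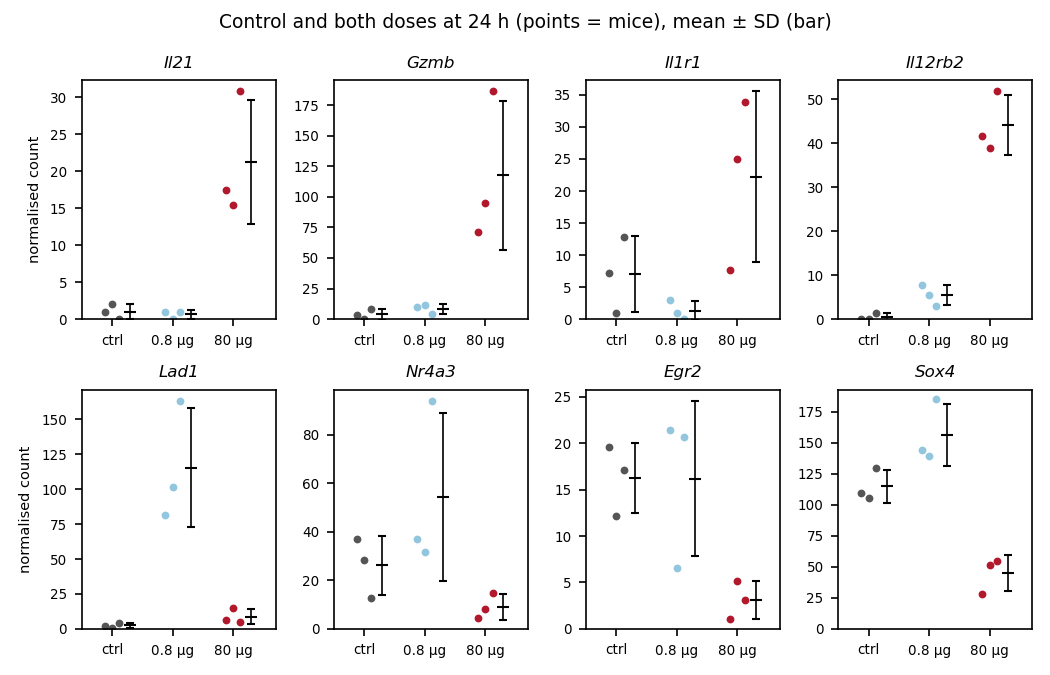
Each panel shows 1 gene, with the normalised count on the y axis (linear, from 0) and control, 0.8 µg and 80 µg mice at 24 h on the x axis. Points are mice and bars are the mean ± SD of 3, and Il21, Gzmb and Il12rb2 are high with 80 µg, while Lad1 is high with 0.8 µg and Sox4 is low with 80 µg.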

How the data were processed

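Splenic CD4+ T cells were profiled by QuantSeq 3' RNA sequencing in 21 libraries, 1 per mouse, 7 groups of 3. Per the labels and the study's methods, the authors aligned reads to mm10 with STAR 2.5.2a, counted them per gene with HTSeq and merged 4 lanes; the counting strand setting and annotation release are not given in the sources used here. The deposited values were counts per gene (47643 genes) and regularised log2 values (15249 genes), the latter used in 1 alternative only. The counts entered a DESeq2 1.42.0 model (R 4.3.3) of all 21 libraries with group as the term (14 residual degrees of freedom), for genes with at least 10 counts over all libraries. Log2 fold changes were shrunken with the normal prior, and genes were called at an adjusted p under 0.05 and a size over 1. edgeR 4.0.16 and limma 3.58.1 served as alternatives, and the scripts were tested on simulated data. Intervals are exact at 95% and, like the floor of 3 counts per library, cover counting error only. With 3 mice per group, p-values weigh a difference against the spread between mice within groups, estimated over all 7 groups and not only the 2 compared. Totals per library set the precision of low genes.

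Members and gene lists were chosen with earlier results of these data known. Named were the 12 genes each way with the largest fold change (mean of at least 20, no overlap), up to 5 called members per list, any member of 6 lists of T cell genes, up to 8 genes each way called in opposite directions at 12 h and 24 h, and up to 6 each way from the dose comparison, with exceptions named in the text. Some genes are not reported here. Positions are from GENCODE and promoters from RefSeq (GRCm38.p6). The correlation of deviations between same-numbered 80 µg and control libraries was 0.10, -0.07 and 0.12. Between different-numbered ones it ran from -0.20 to 0.10. These values show no clear pairing by replicate number, but so few values cannot exclude one.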

Additional observations from a re-analysis of the deposited data

Results flagged for a closer look

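The difference of 80 µg from control itself differed between 24 h and 12 h, by the direct DESeq2 test of the 2 times, in genes called in opposite directions. The log2 fold changes of 24 h over 12 h were Lockd 6.76, Hist1h1d 6.51, Ifit1bl1 6.496, H2afv 5.92, Ifit3 5.80, 1700097N02Rik 5.74, Ifit3b 5.64, Cenpa 5.45, Egr2 -3.84, Nr4a3 -3.76, Fpgs -2.89, Polr3d -2.89, D030028A08Rik -2.87, Prpf40b -2.87, Mdn1 -2.83, Rsad1 -2.69. Time and sort gate cannot be told apart in these values.

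At 24 h the difference from control differed between the doses in the genes below, by the direct DESeq2 test of 80 µg against 0.8 µg. The log2 fold changes of 80 µg over 0.8 µg were Gzmb 3.59, Plac8 2.64, Ifi204 2.46, Il18rap 2.28, Neb 2.17, Neurl1b 2.04, Lad1 -3.58, Nr4a3 -2.31, 2310043P16Rik -2.24, Sox4 -1.73, Gm42778 -1.66, Nrn1 -1.65. What underlies these differences was not tested.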

How the results depend on the processing

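Of 216 named genes tested against control, 159 kept their direction and call under every alternative run and 57 did not in at least 1. Without the fold change threshold (adjusted p alone) 5048 genes were called against control (2862 higher, 2186 lower), 573 between doses (360 and 213) and 5907 between times (2618 lower). Between doses, limma voom called 282 (138 and 144) and a fit to the 6 samples compared 78 (50 and 28). The cause was not tested. Leaving out 1 library at a time gave 2345 to 2498 calls against control (1471 to 1534 higher, 867 to 978 lower), 122 to 157 between doses (68 to 95 and 45 to 70), 3314 to 3513 between times (2020 to 2141 and 1278 to 1372) and 441 to 459 list members. With edgeR 2585 of the 2615 calls were shared, and with the deposited log2 values 2070. Pairing by replicate number was neither seen nor excluded. With the replicate block 2550 genes were called against control (1562 and 988), 138 between doses and 3556 between times.

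Values not called in the main test changed sign as follows: with limma voom Bcl6 0.013, Cd4 0.017, Il21r 0.011; thinned to the smallest library Cd3d -0.0085, Eomes -0.029, Il2 0.018, Nr4a1 -0.063, Tnfsf11 0.35; with library-total size factors, Gm42418 and mitochondrial rRNA left out Cd3d -0.15, Cd44 -0.12, Ddx3y -0.024, Nr4a1 -0.14, Prdm1 -0.14; with edgeR quasi-likelihood Cd4 0.015, Il2rg 0.00069; with DESeq2 and TMM size factors Cd4 0.015; with the deposited log2 values and limma Nr4a2 -0.016. Leaving out 1 library at a time, the sign was not stable for Bcl6 -0.25 to 0.0964, Cd3d -0.0284 to 0.0546, Cd4 -0.0456 to 0.0569, Cd44 -0.0728 to 0.15, Ddx3y -0.11 to 0.57, Eomes -0.0499 to 0.96, Il10 -0.88 to 0.59, Il2 -0.42 to 0.22, Il21r -0.16 to 0.0942, Il2rg -0.0968 to 0.11, Nr4a1 -0.33 to 0.60, Nr4a2 -0.14 to 0.61, Prdm1 -0.22 to 0.39, Tnfsf11 -1.27 to 0.35, Tnfsf8 -0.19 to 0.0677. Depth limits genes of a few counts per library, such as Il10, Tigit and Ifng.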
